A study of Mus musculus with 6 samples.

Results

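The genes described here belong to families of enzymes and remodelling subunits, most of which write, erase, read and move on histones. They were chosen by name: every protein-coding row of the count table whose symbol belongs to the KMT2 and KMT5, SETD and EZH methyltransferases, the KDM demethylases, the KAT acetyltransferases, the HDAC and SIRT deacetylases, the BRD bromodomain genes, or the SMARC, ARID and CHD remodeller genes. This gave 99 of the 24794 genes in the table, 15594 of which are protein-coding, in 11 families. The rule used no measured value. By name it also takes in members that act elsewhere, such as the mitochondrial deacylase Sirt5 and the RNA-binding protein Arid5a. A further 4 rows with a matching symbol are not protein-coding (Kdm4dl, Kdm6bos, Smarca5-ps and Smarce1-ps1) and were left out.

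Polyadenylated RNA of LLC cells was sequenced in 6 libraries. LLC, Lewis lung carcinoma, is a transplantable mouse line that arose in a lung tumour of a C57BL/6 mouse, so both groups are 1 line with no animal behind each sample. The 3 mimic libraries come from cells transfected with miR-291-3 mimics, and the 3 control libraries from cells transfected with a mimics control. The series asks what an excess of miR-291a-3p does in these cells, and the labels give neither the dose of the mimic nor the time after transfection.

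A microRNA mimic is a short RNA duplex that is loaded into Argonaute like an endogenous microRNA, and its seed pairs with matching letters in the 3' UTR of messenger RNAs, which are then degraded or translated less. The mature miR-291a-3p and the relatives below share 1 seed, bases 2 to 8, printed in capitals. They are shown because any match in a member fits all of them alike. The sequences are those of RefSeq on GRCm38.p6, where miR-291a-3p lies at chr7:3218968-3218989 on the plus strand. The sample titles read miR-291-3, with no a or b, and the labels do not give the letters of the mimic itself. The seed words used below rest on the mimic being miR-291a-3p.
mmu-miR-291a-3p: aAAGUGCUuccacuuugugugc
mmu-miR-294-3p: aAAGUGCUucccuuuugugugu
mmu-miR-302b-3p: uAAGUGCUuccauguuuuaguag

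Histone methyltransferases and demethylases add and remove the methyl groups that mark active promoters, enhancers or silenced genes. Acetyltransferases and deacetylases do the same for acetyl groups, which bromodomain proteins bind. Remodellers of the SWI/SNF, ISWI and CHD kinds use ATP to slide or evict nucleosomes, and several of these complexes exist in versions that carry alternative paralogous subunits.

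Libraries held 25376993 to 32963986 counts, nearly all of them in the 13779 genes tested. The spread between libraries of a group was small, with a common biological coefficient of variation of 2.02%. The labels do not tell whether a group's libraries stem from separate cultures. The p-values may therefore rest on technical spread alone. Of the markers looked for, Epcam had 5 counts, Cdh1 14, Ptprc 4 and Cdh5 1 over all 6 libraries. Krt8 was at 486 to 562 CPM and Vim at 1866 to 2072 CPM (CPM, read counts relative to the TMM-scaled library size). Krt18, another epithelial marker, was low, with 479 counts (1.97 CPM in control, 3.65 CPM in mimic libraries). Krt8 and Krt18 were called as risen and Vim as fallen. Of the other markers of blood and vessel cells, Lyz2 had 730 counts (5.52 CPM in control, 2.78 CPM in mimic libraries, called as fallen), Cd68 272 and Pecam1 89, and their part in the results was not tested. The lung lineage markers Nkx2-1, Sftpc and Scgb1a1 were not analysed here. In bulk libraries less RNA per cell and fewer cells carrying an RNA cannot be told apart.

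The members split evenly between rises and falls, most of them small, and only 3 reached 1.5-fold. By edgeR's quasi-likelihood test (adjusted p under 0.05, Benjamini-Hochberg over all genes) 22 of the 94 tested members rose and 25 fell. That is 23.4% and 26.6% of them, against 24.3% and 24.8% of all genes tested and 27.2% and 27.4% of the protein-coding ones. In either direction 50% of the members were called, against 49.1% of all genes and 54.7% of the protein-coding ones. These shares lie close to the background and are no result about the members. The 3 members past 1.5-fold were the demethylase Kdm5b and the DNA-binding protein Arid3a, which rose, and the mitochondrial deacylase Sirt5, which fell. Of all genes 1.45% rose and 4.27% fell by that much. At 1.2-fold or more 5 members rose and 9 fell, against 7.61% and 13.6% of all genes.

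The median change was -0.03 on the log2 scale for the members and -0.01 for all genes. The median size of the change, without its sign, was 0.0938 for the members and 0.162 for all genes, on the same scale, while the members' median level was 34.8 CPM and that of all genes 22.2 CPM. The called members changed by a median of 12.3% upwards and 13.6% downwards (14.8% and 18.1% for all genes called). In 52 members, 55.3% of those tested, the 3 mimic and the 3 control libraries did not overlap (54.9% of all genes, 59.9% of the protein-coding ones). The split into rises and falls moved with the scaling. Total counts in place of TMM gave 11 risen and 39 fallen members, with a members' median of -0.09 and a median of -0.06 for all genes. Under the same scaling 2341 of all 13779 genes rose and 4444 fell. The 11 calls lost under it were all rises, of at most 0.18 on the log2 scale. The plot of changes by family shows that every family with more than 2 tested members has members near 0 beside its outlying ones.

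**Figure D1:**
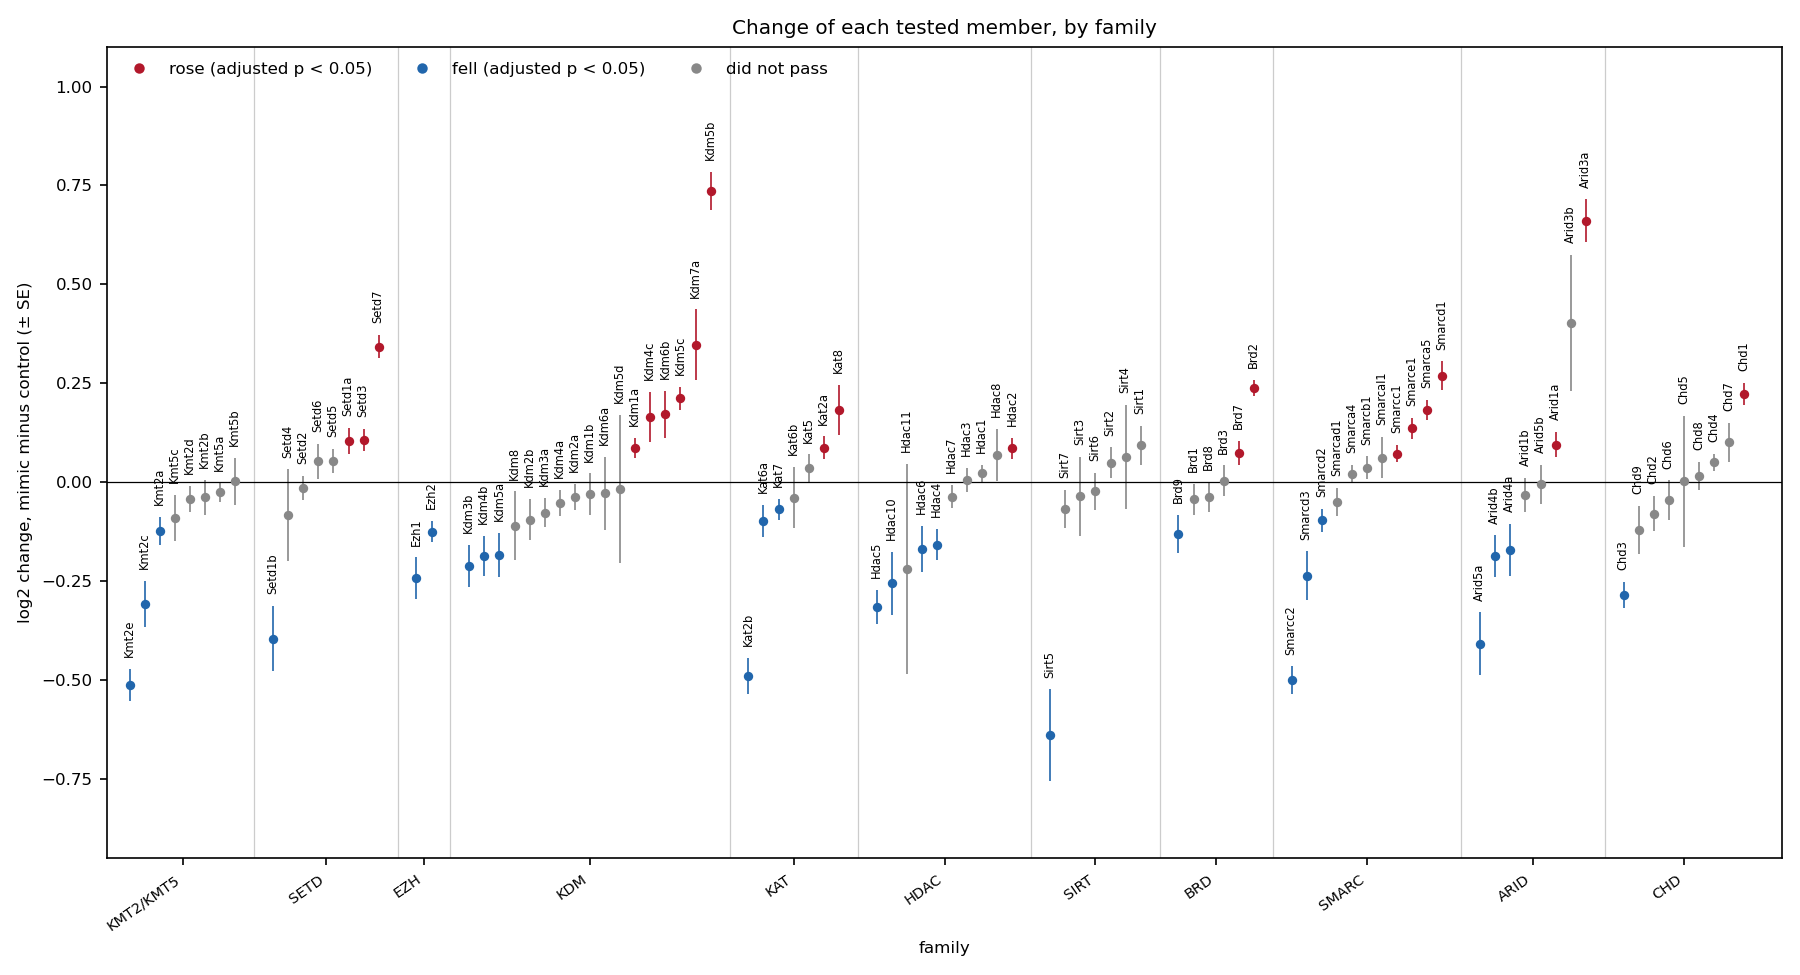
Log2 change between mimic and control (vertical axis, ± SE, n = 3 libraries each) of 93 tested members, sorted within each of the 11 families along the horizontal axis; red points rose, blue points fell and grey points did not pass the test. Kdm5b (0.74) and Arid3a (0.66) lie highest and Sirt5 (-0.64) lowest.

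The 5 members that were not tested had almost no reads. Smarca1 and Smarca2, 1 of them an ISWI and 1 a SWI/SNF ATPase, each had 1 count over all 6 libraries. Hdac9, Arid3c and Kdm4d had at most 5 counts in a library. For Smarca2 and Hdac9 no FPKM value (fragments per kilobase of transcript, scaled to library depth) was used here.

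Levels between genes are compared in FPKM, as the authors deposited them. The highest control level of a family, named after the values were seen, was that of Hdac1 at 59.1 ± 1.13 FPKM (SD, n = 3), the catalytic subunit of the NuRD, Sin3 and CoREST deacetylase complexes. Kat2a followed at 38.4 ± 0.53 FPKM, the bromodomain gene Brd2 at 38.1 ± 0.22, the NuRD remodeller Chd4 at 32.9 ± 0.86 and the methyltransferase Kmt5a at 32.2 ± 1.15. Among these, Kat2a and Brd2 lay within the spread of their libraries, and so did Chd4 and Kmt5a. The SWI/SNF ATPase Smarca4 was at 27.7 ± 0.25 FPKM, the demethylase Kdm1a at 18.3 ± 0.25, Setd6 at 15.2 ± 0.39 and Ezh2 at 15.0 ± 0.24. The top sirtuins, Sirt6 and Sirt2, were at 9.29 ± 0.20 and 9.23 ± 0.44 FPKM and did not differ beyond their spread. The ARID family was lowest, with Arid1a leading at 6.23 ± 0.23 FPKM.

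Among the KMT2 and KMT5 methyltransferases 3 of 8 fell and 0 rose by edgeR (median change -0.07 on the log2 scale), and 0 rose at an unadjusted p under 0.05 or by the DESeq2 Wald test. That is 37.5% called, of only 8 genes. Beside this and the family counts that follow stand 24.3% risen and 24.8% fallen among all genes tested. Among the protein-coding ones 27.2% rose and 27.4% fell. In families this small such counts are coarse. Kmt2e, an MLL-like protein with a PHD finger and a SET domain, changed most (ENSMUSG00000029004.16, chromosome 5). It was at 44.9, 44.9 and 43.7 CPM in the control libraries and at 31.6, 31.1 and 30.8 CPM in the mimic libraries, a fall of 29.9%. The 3 libraries of each group lay within about 1 CPM of each other and far from the other group, with a log2 change of -0.51 ± 0.04 (SE) and an adjusted p of 4.94e-12. Kmt2c, an enhancer methyltransferase, went from 25.9, 27.7 and 24.6 CPM to 22.3, 21.6 and 19.2 CPM. Its groups did not overlap, although the lowest control and the highest mimic library stood closer than in Kmt2e (-0.31 ± 0.06, adjusted p = 4.86e-05). Kmt2a, the MLL1 methyltransferase of the Hox genes, went from 53.4, 52.3 and 51.5 CPM to 48.3, 46.9 and 49.1 CPM. This fall was small (-0.12 ± 0.04, adjusted p = 0.00512) and missed the threshold with the DESeq2 Wald test (adjusted p = 0.0558). The paralogs Kmt2b and Kmt2d, at -0.04 ± 0.04 and -0.04 ± 0.03, did not pass. With total counts only, 6 of the 8 fell.

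In the SETD family 3 of 8 rose and 1 fell (median change 0.05 on the log2 scale). Setd7, a monomethyltransferase of histones and other proteins, was at 75.4, 74.5 and 75.1 CPM in the control and at 93.2, 95.6 and 96.2 CPM in the mimic libraries. All mimic libraries were well above all control libraries, by 0.34 ± 0.03 on the log2 scale (adjusted p = 2.54e-11). Setd1b, a catalytic subunit of a COMPASS complex that methylates promoters, went the other way, from 14.7, 13.1 and 14.5 CPM to 12.4, 9.68 and 10.2 CPM. Mimic library 1 was the highest of its group but stayed under the lowest control library, and the log2 change was -0.40 ± 0.08 (adjusted p = 0.000144). Its paralog Setd1a rose slightly, from 63.2, 61.0 and 63.2 CPM to 68.0, 65.9 and 67.8 CPM (0.10 ± 0.03, adjusted p = 0.0086). With total counts only Setd1a did not pass (0.05, adjusted p = 0.236), and 1 of the 8 rose.

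Both EZH genes, the alternative catalytic subunits of the polycomb complex PRC2, fell. Ezh1 was at 25.8, 24.7 and 24.0 CPM in control and 20.8, 20.9 and 21.3 CPM in mimic libraries (log2 change -0.24 ± 0.05, adjusted p = 0.000251). Ezh2 was at 113.7, 110.0 and 114.3 CPM and at 103.5, 104.8 and 101.7 CPM (-0.13 ± 0.03, adjusted p = 0.000287). Neither gene had a mimic library as high as its lowest control library. Both calls held in each of the 12 alternative settings.

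The KDM family held the largest rise of all members. Of its 17 tested members 6 rose and 3 fell, with a median change of -0.03 on the log2 scale. Kdm5b, which removes methyl groups from the promoter mark on histone H3 (ENSMUSG00000042207.18, chromosome 1), was at 19.7, 20.5 and 20.2 CPM in the control libraries and at 33.4, 33.1 and 34.2 CPM in the mimic libraries. Each group spanned little more than 1 CPM, and the rise was 1.67-fold (log2 change 0.74 ± 0.05, adjusted p = 6.85e-14). On the FPKM scale Kdm5b stayed a low gene, from 1.08 ± 0.02 to 1.76 ± 0.012 (SD, n = 3). Kdm5c, its X-linked paralog, rose less, from 83.8, 81.1 and 82.6 CPM to 97.3, 95.2 and 94.3 CPM (0.21 ± 0.03, adjusted p = 3.1e-07). The Y-linked copy Kdm5d is near-identical to Kdm5c in part, so reads could be split between them; it was at 1.70 ± 0.18 and 1.68 ± 0.16 CPM and did not pass.

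The largest fall in the KDM family was small. Kdm3b, a demethylase of a repressive mark, went from 26.7, 27.1 and 24.5 CPM to 23.3, 22.0 and 22.2 CPM (log2 change -0.21 ± 0.05, adjusted p = 0.00131), without overlap. Its paralog Kdm3a did not pass, at -0.08 ± 0.04 (adjusted p = 0.0765). Kdm6b, a demethylase of the polycomb mark, rose by 0.17 ± 0.06 (adjusted p = 0.0185), but missed the threshold without control replicate 2 (adjusted p = 0.0749) or control replicate 3 (0.0674). The Kdm6b call was also lost with total counts only (adjusted p = 0.117) and by the DESeq2 Wald test (0.0809). A row for Kdm6bos, named for the strand opposite to Kdm6b, is in the table, and since the labels do not say whether counting used the strand, reads of the pair cannot be told apart. Kdm6a, Kdm2a and Kdm2b, at -0.03 ± 0.09, -0.04 ± 0.03 and -0.09 ± 0.05, did not pass. With total counts only the KDM counts became 3 risen and 7 fallen.

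The KAT family held 1 clear fall and 4 small changes. Kat2b, the PCAF acetyltransferase of the SAGA and ATAC coactivators (ENSMUSG00000000708.15, chromosome 17), was at 37.9, 35.9 and 39.2 CPM in control and at 26.5, 27.4 and 26.6 CPM in mimic libraries. The lowest control library was more than 8 CPM above the highest mimic library, and the log2 change was -0.49 ± 0.05 (adjusted p = 1.87e-10). Its paralog Kat2a, the GCN5 acetyltransferase, which fills the same place in those coactivators, was at 151.0, 148.0 and 153.4 CPM and at 152.2, 168.4 and 159.8 CPM. Kat2a was called as risen (0.09 ± 0.03, adjusted p = 0.0108) although its groups overlapped, and the call was lost without mimic replicate 2 (0.05, adjusted p = 0.156) or control replicate 2 (0.07, adjusted p = 0.0508).

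Kat8, which acetylates histone H4, rose from 15.1, 15.1 and 14.1 CPM to 16.3, 17.3 and 16.6 CPM (log2 change 0.18 ± 0.06, adjusted p = 0.0169). This call was lost without control replicate 3 (adjusted p = 0.0889) or mimic replicate 2 (0.078). It was also lost with total counts only (adjusted p = 0.0994) and by the DESeq2 Wald test (0.0808). The fall of Kat6a, a MYST acetyltransferase (-0.10 ± 0.04, adjusted p = 0.0398), was lost without each library in turn except control replicate 3, with adjusted p up to 0.208, and its paralog Kat6b did not pass (-0.04 ± 0.08). In all, 2 of 7 KAT members rose and 3 fell (median change -0.04), and by the DESeq2 Wald test 1 rose and 1 fell. The third fall, of Kat7, was lost in 9 of the 12 alternative settings, among them each left-out library. Only 1 KAT member fell without control replicate 1, control replicate 2 or any 1 mimic replicate, and 0 rose without mimic replicate 2 or with total counts only.

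Among the deacetylases 4 of 10 HDAC and 1 of 7 SIRT members fell, and 1 HDAC member rose. No sirtuin rose by edgeR, with an unadjusted p under 0.05 in 0 of them for a rise, and 0 by the DESeq2 Wald test. The median change was -0.10 on the log2 scale for HDAC and -0.02 for SIRT. Hdac5, a class IIa deacetylase that shuttles between nucleus and cytoplasm, was at 39.7, 38.1 and 36.8 CPM in control and 30.8, 31.0 and 30.2 CPM in mimic libraries (log2 change -0.32 ± 0.04, adjusted p = 3.75e-07). Hdac4, of the same class, went from 46.9, 47.0 and 44.0 CPM to 41.3, 41.7 and 40.5 CPM (-0.16 ± 0.04, adjusted p = 0.00117). Neither had overlapping groups. The class I enzymes at high level moved little: Hdac1 did not pass at 0.02 ± 0.02, and Hdac2 rose by 0.09 ± 0.03 (adjusted p = 0.00941), a call lost without control replicate 3 (0.06, adjusted p = 0.0854) and with total counts only (0.03, adjusted p = 0.403). By the DESeq2 Wald test 2 HDAC members fell.

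Sirt5 removes succinyl and malonyl groups from mitochondrial proteins and had the largest fall of all members (ENSMUSG00000054021.7, chromosome 13). It was at 5.68, 5.62 and 6.63 CPM in control and 3.77, 3.58 and 4.18 CPM in mimic libraries. The groups lay apart, although this is a low gene with 94 to 223 reads in a library, and the log2 change was -0.64 ± 0.12 (adjusted p = 2.46e-05). The other 6 sirtuins, the nuclear Sirt1, Sirt6 and Sirt7 among them, lay between -0.07 and 0.09 and did not pass. Without mimic replicate 1, Sirt1 did (0.14, adjusted p = 0.0285).

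Of the BRD genes 3 of 7 rose and 1 fell, with a median change of 0.00 on the log2 scale. Brd2, a BET protein that binds acetylated histones, was at 337.5, 332.2 and 338.4 CPM in control and 393.4, 403.3 and 391.9 CPM in mimic libraries. All mimic libraries were above all control libraries (log2 change 0.24 ± 0.02, adjusted p = 2.23e-11). Brd9, a subunit of the non-canonical SWI/SNF complex, had overlapping groups, and its fall (-0.13 ± 0.05, adjusted p = 0.0222) was lost without each of 4 libraries: control replicates 2 (adjusted p = 0.0526) and 3 (0.146) and mimic replicates 1 (0.136) and 3 (0.0796). The fall of Brd9 was also lost by the DESeq2 Wald test (adjusted p = 0.13).

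**Figure D2:**
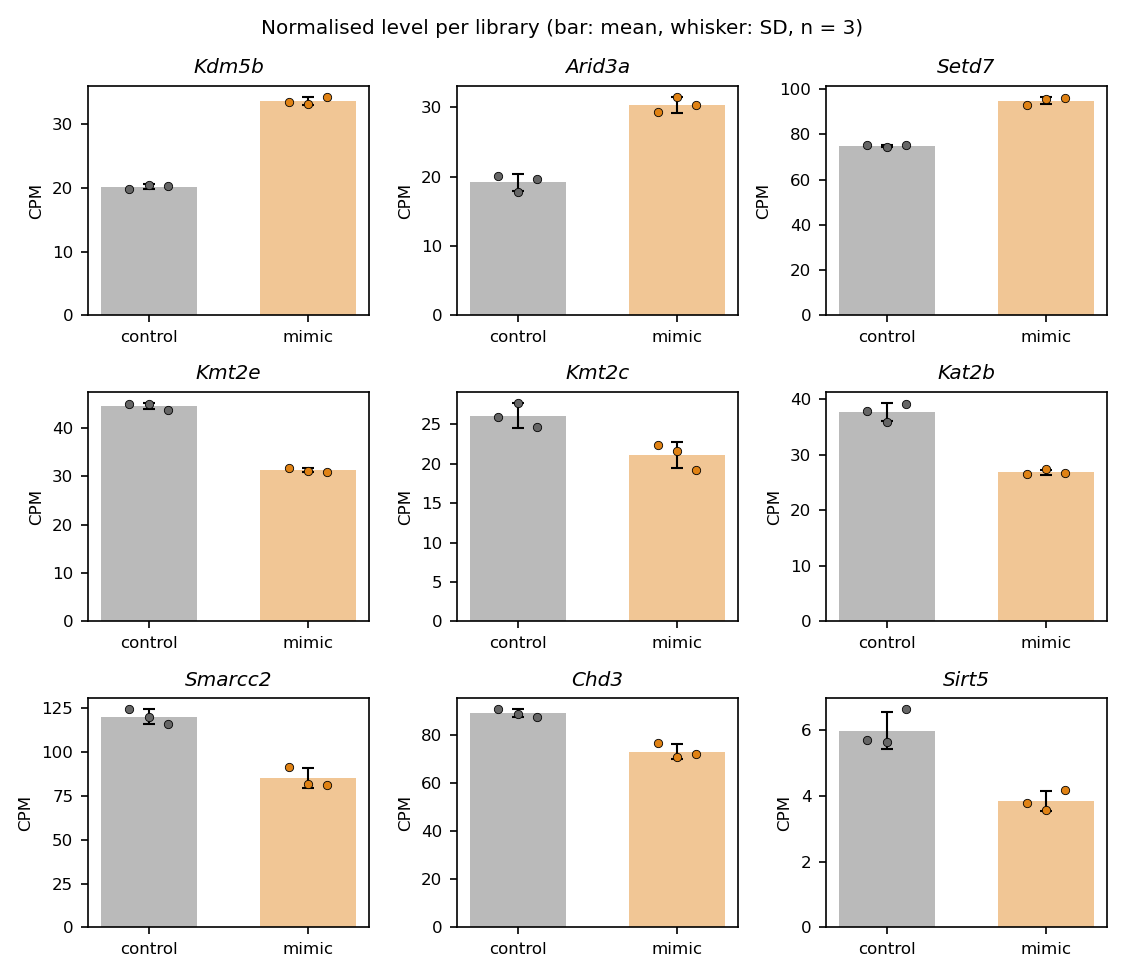
TMM-scaled CPM (vertical axis, from 0) in the control and mimic libraries for 9 members; bars are means, whiskers SD (n = 3) and points single libraries. In all 9 panels the mimic points lie wholly above (Kdm5b, Arid3a, Setd7) or wholly below the control points. The 9 are among the members with large called changes, so this separation follows from the choice. Of all genes tested 54.9% did not overlap either.

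Most of the SMARC genes, though not Smarcal1 and Smarcad1, encode parts of SWI/SNF and ISWI remodellers. Of the SMARC genes 4 of 11 rose and 3 fell (median change 0.04 on the log2 scale), and the largest change was the fall of Smarcc2. Smarcc2, the BAF170 scaffold subunit (ENSMUSG00000025369.16, chromosome 10), was at 124.7, 120.0 and 115.9 CPM in control and at 91.6, 81.9 and 81.5 CPM in mimic libraries. Mimic library 1 was the highest of its group and still more than 24 CPM under the lowest control library (log2 change -0.50 ± 0.03, adjusted p = 2.8e-13). Smarcc1, the BAF155 paralog that can take the same place, was at 222.2, 215.9 and 222.8 CPM and at 231.4, 232.4 and 230.8 CPM. Its small rise (0.07 ± 0.02, adjusted p = 0.00676) was lost without control replicate 2 (adjusted p = 0.0564) and with total counts only (0.01, adjusted p = 0.602).

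Smarcd1, the BAF60A subunit, rose most of the family, from 47.9, 45.3 and 46.8 CPM to 55.3, 56.1 and 57.3 CPM (log2 change 0.27 ± 0.04, adjusted p = 2.16e-07). The other called members were 2 that rose and 2 that fell, between -0.24 and 0.18. Smarca5, the ISWI ATPase, was 1 of these and rose from 158.7, 156.5 and 156.0 CPM to 171.2, 181.8 and 181.0 CPM (0.18 ± 0.02, adjusted p = 3.22e-07). A pseudogene row, Smarca5-ps, is in the table, so that reads of near-identical sequence could be split between the 2. The ATPase Smarca4 did not pass (0.02 ± 0.02), with 200.7 to 204.0 CPM in control and 202.3 to 206.6 CPM in mimic libraries.

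In FPKM, which allows subunits to be set side by side, Smarcc2 stood at 19.9, 19.3 and 18.5 in the control libraries and at 14.3, 12.9 and 12.6 in the mimic libraries. Smarcc1 stood at 25.14, 24.58 and 25.15 FPKM and at 25.55, 25.98 and 25.25 FPKM. Smarca4 was at 27.7 ± 0.25 and 27.4 ± 0.53 FPKM (SD, n = 3). The group means of Smarcc1 and Smarca4 differed by less than 1 FPKM, those of Smarcc2 by about 6 FPKM.

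**Figure D3:**
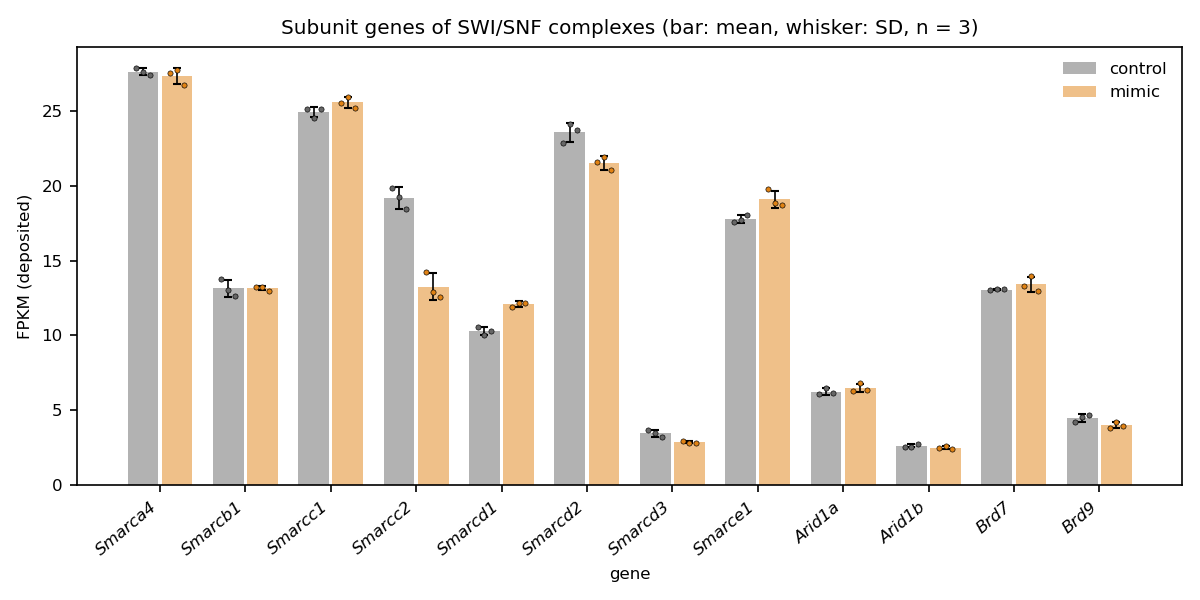
Deposited FPKM (vertical axis, from 0) of 12 SWI/SNF subunit genes in control and mimic libraries; bars are means, whiskers SD (n = 3) and points single libraries. Smarcc2 drops from 19.2 to 13.3 FPKM, whereas Smarca4 and Smarcc1 stay between 24 and 28 FPKM.

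In the ARID family 2 of 8 rose and 3 fell, with a median change of -0.02 on the log2 scale. Arid3a, a DNA-binding protein first known as Bright in B cells (ENSMUSG00000019564.13, chromosome 10), was at 20.1, 17.8 and 19.7 CPM in control and at 29.2, 31.5 and 30.3 CPM in mimic libraries. This rise was 1.58-fold, with a gap of about 9 CPM between the groups (log2 change 0.66 ± 0.05, adjusted p = 1.03e-11). Arid5a, an RNA-binding protein that stabilises inflammatory transcripts, fell from 14.7, 15.2 and 12.5 CPM to 10.2, 10.4 and 11.2 CPM (-0.41 ± 0.08, adjusted p = 6.68e-05). Control library 3 was the lowest of its group and stayed above every mimic library. Arid1a, the largest BAF subunit, rose by 0.09 ± 0.03 (adjusted p = 0.0147), a call lost without control replicate 1 (adjusted p = 0.0741), control replicate 3 (0.0534) or mimic replicate 2 (0.119), and with total counts only (0.34), and Arid1b did not pass (-0.03 ± 0.04).

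Of the CHD remodellers 1 of 9 rose and 1 fell, with a median change of 0.00. That is 22.2% called, of only 9 genes, against 49.1% of all genes and 54.7% of the protein-coding ones. With total counts only, 1 rose and 3 fell. Chd3, a NuRD ATPase, was at 90.8, 88.6 and 87.5 CPM in control and 76.5, 70.8 and 71.9 CPM in mimic libraries, a gap of about 11 CPM between the groups (log2 change -0.29 ± 0.03, adjusted p = 8.11e-09). Its paralog Chd4 did not pass (0.05 ± 0.02, adjusted p = 0.0694), with 289.9 to 304.9 CPM in control and 300.8 to 315.9 CPM in mimic libraries. Chd1, a remodeller of transcribed genes, rose from 97.1, 101.3 and 97.0 CPM to 114.6, 116.3 and 113.5 CPM (0.22 ± 0.03, adjusted p = 5.12e-08). No Chd1 mimic library came as low as a control library. Chd4 is a call that moves with the setting: it passed as risen with DESeq2 size factors (adjusted p = 0.0478), with the replicate number as a block (0.0240), and without control replicate 1 (0.0243) or mimic replicate 3 (0.0244). Without mimic replicate 1, Chd9 passed as fallen (-0.17, adjusted p = 0.0378).

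The ratio of 2 paralogs within a library does not depend on the scaling between libraries, and 17 pairs were set for it. The pairs Smarca2/Smarca4 and Smarca1/Smarca5 could not be compared for lack of reads, which left 15. In 10 of these the 3 mimic ratios did not overlap the 3 control ratios; in 4 of the 10 the first gene of the pair lost ground. Of single genes 54.9% did not overlap, a share that is not one of ratios. With 3 libraries against 3 the smallest p that a two-sided exact permutation test allows is 0.1, reached by all 10 (adjusted p = 0.15 over the 15 pairs), so no pair could pass a threshold of 0.05 by this test.

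The 2 pairs with the largest shifts were Kat2a/Kat2b and Smarcc1/Smarcc2, each 0.57 on the log2 scale (± 0.04 and ± 0.07 SE), a 1.49-fold change of the ratio. In FPKM, Kat2a stood 5.57, 5.76 and 5.47 times above Kat2b in the control and 8.01, 8.61 and 8.39 times in the mimic libraries. Smarcc1 stood 1.26, 1.28 and 1.36 times above Smarcc2 and then 1.79, 2.01 and 2.01 times. In both pairs the shift came with a fall of 1 paralog while the other changed by under 0.1 on the log2 scale.

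Kdm5b gained on Kdm5c by 0.52 ± 0.04 on the log2 scale, from an FPKM ratio of 0.105 ± 0.00337 to 0.151 ± 0.00413 (SD, n = 3). Here both genes had risen. Setd1a gained on Setd1b by 0.50 ± 0.10, from ratios of 7.64, 8.25 and 7.75 to 9.72, 12.1 and 11.7 in FPKM. Chd3 lost against Chd4 by 0.33 ± 0.02, from FPKM ratios of 0.283, 0.283 and 0.287 to 0.230, 0.219 and 0.227. In NuRD, which holds Chd3 or Chd4, Chd3 was the lesser transcript in all 6 libraries.

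Smaller shifts without overlap were seen in Kmt2c/Kmt2d (difference of log2 ratios -0.27 ± 0.06), Kdm6a/Kdm6b (-0.20 ± 0.08), Kdm3a/Kdm3b (0.14 ± 0.05) and Ezh1/Ezh2 (-0.12 ± 0.04). Ezh1 fell more than Ezh2 and was already the lesser of the PRC2 enzymes, at 0.198 ± 0.0082 times the Ezh2 FPKM in control and 0.182 ± 0.00481 times in mimic libraries. Ratios overlapped in Arid1a/Arid1b (0.12 ± 0.06, exact p = 0.2), Hdac1/Hdac2 (-0.06 ± 0.03, exact p = 0.2), Kmt2a/Kmt2b (-0.08 ± 0.05, exact p = 0.2), Kat6a/Kat6b (-0.05 ± 0.08, exact p = 0.4) and Kdm2a/Kdm2b (0.05 ± 0.07, exact p = 0.6). The last of these changed its sign without mimic replicate 3 (-0.01).

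**Figure D4:**
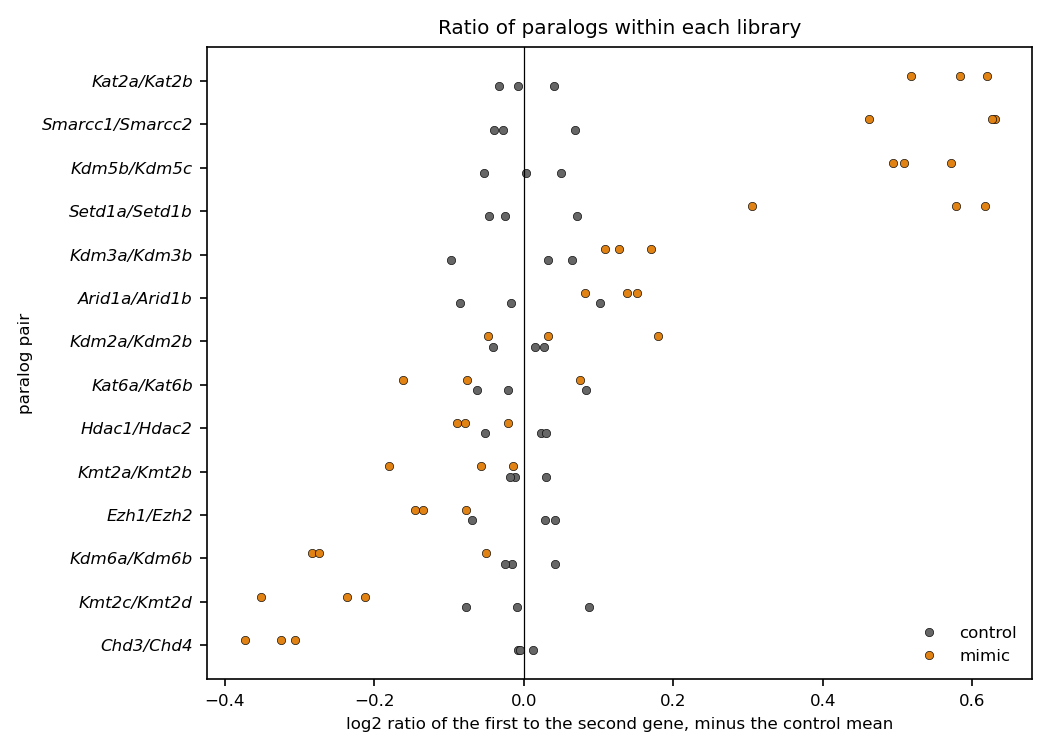
Log2 ratio of the first to the second gene of 14 paralog pairs in each library, minus the control mean (horizontal axis); grey points are the 3 control and orange points the 3 mimic libraries. The mimic points lie wholly to the right for 5 pairs, Kat2a/Kat2b (0.57) at the top, and wholly to the left for 4, Chd3/Chd4 (-0.33) at the bottom.

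A match to the seed was sought in the longest annotated 3' UTR of each gene (GENCODE M21 on GRCm38, which is not the files' build, GRCm39). The words, on the strand of the transcript only, were AGCACTTA (8mer), AGCACTT (7mer-m8), GCACTTA (7mer-A1) and GCACTT (6mer); each longer word contains the 6mer, and a gene counts under its best. Of the 94 tested members 21 (22.3%) held a word of at least 7 bases, and of the 11555 protein-coding genes tested with a 3' UTR 2422 (21.0%) did. A match in letters is a description and not a site shown to work.

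The 3 members with an 8mer all fell: Smarcc2, Kmt2a and Hdac4. Of the 416 protein-coding genes with an 8mer, 205 (49.3%) fell and 54 rose. The sites are shown because these are the members with the longest match, with the matching letters in capitals.
Smarcc2, chr10:128489793-128489822, plus strand: agaccctcaagtttgaaaAGCACTTAagca
Kmt2a, chr9:44806508-44806537, minus strand: aagcacttcatagggagaAGCACTTAtgac
Hdac4, chr1:91931126-91931155, minus strand: actgctaacttcttttctAGCACTTAaagc

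The Smarcc2 word occupies UTR positions 839 to 846 of 1200. That of Kmt2a occupies 1383 to 1390 of 4547, and that of Hdac4 2210 to 2217 of 4568. Kmt2a holds another 7mer-m8 just before it, at 1366 to 1372, and Hdac4 another at 2994 to 3000. The words of Smarcc2, Kmt2c and Hdac2 depend on the transcript taken: none of the 4 words is in the 3' UTR of their transcript with the longest coding sequence.

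Of the 13 members whose best word is a 7mer-m8, 6 fell (Kat2b, Kmt2c, Ezh1, Kdm5a, Arid4a and Arid4b) and 3 rose (Smarcc1, Hdac2 and Kdm7a). Kdm5a, Arid4a, Arid4b and Kdm7a are named here after their values were seen. The fall of Kdm5a was lost without mimic replicate 2 (adjusted p = 0.0714), and that of Arid4a without control replicate 1 (0.151), mimic replicate 1 (0.118) or mimic replicate 3 (0.109). By the DESeq2 Wald test both falls were lost (adjusted p = 0.0512 for Kdm5a and 0.146 for Arid4a). With no filter in edgeR the fall of Arid4a was lost too (adjusted p = 0.0524). The sites printed are those of Kat2b, Kmt2c and Ezh1, which fell, and, for contrast, of 2 members that rose with the same 7 letters.
Kat2b, chr17:53670975-53671004, plus strand: gaagagacttgtaataattAGCACTTttga
Kmt2c, chr5:25273433-25273462, minus strand: cagagtcacagaatggtccAGCACTTtttt
Ezh1, chr11:101192007-101192036, minus strand: tgggattcatagagaacaaAGCACTTtaac
Smarcc1, chr9:110239700-110239729, plus strand: cccaaagtaaattgactccAGCACTTgcct
Hdac2, chr10:36995273-36995302, plus strand: aggtcagcattcagttaacAGCACTTtcat

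Over the 21 members with a word of at least 7 bases, 10 fell (47.6%), 3 rose and 8 did not pass, and the median change was -0.10 on the log2 scale. Over the 73 with a 6mer or none, 15 fell (20.5%) and 19 rose, with a median of -0.02. Among all protein-coding genes tested, 38.6% of those with such a word fell and 18.1% rose, against 24.6% and 29.8% of those without. The order is the same in the members and in the wider set, and with 21 members a share of this kind is coarse. Members with such a word also had longer 3' UTRs, with a median of 2321 bases against 1142 in those without. In protein-coding genes these medians were 2456.5 and 923 bases. Whether UTR length has a part in the shares was not tested. With the 3' UTR of the longest coding sequence 18 members held such a word, of which 8 fell and 2 rose.

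Large changes were seen in members with and without such a word, and 77.7% of the tested members hold none. Smarcc2 (-0.50 on the log2 scale), Kat2b (-0.49) and Kmt2c (-0.31) fell and hold one. Kmt2e, Sirt5, Hdac5, Setd1b and Arid5a fell and hold no word of at least 7 bases, and Chd3 holds only a 6mer. Kdm5b and Arid3a, the members that rose most, hold none of the 4 words in 3' UTRs of 3911 and 3082 bases. In the plot of changes by site, members without a word span the whole range from Sirt5 to Kdm5b.

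**Figure D5:**
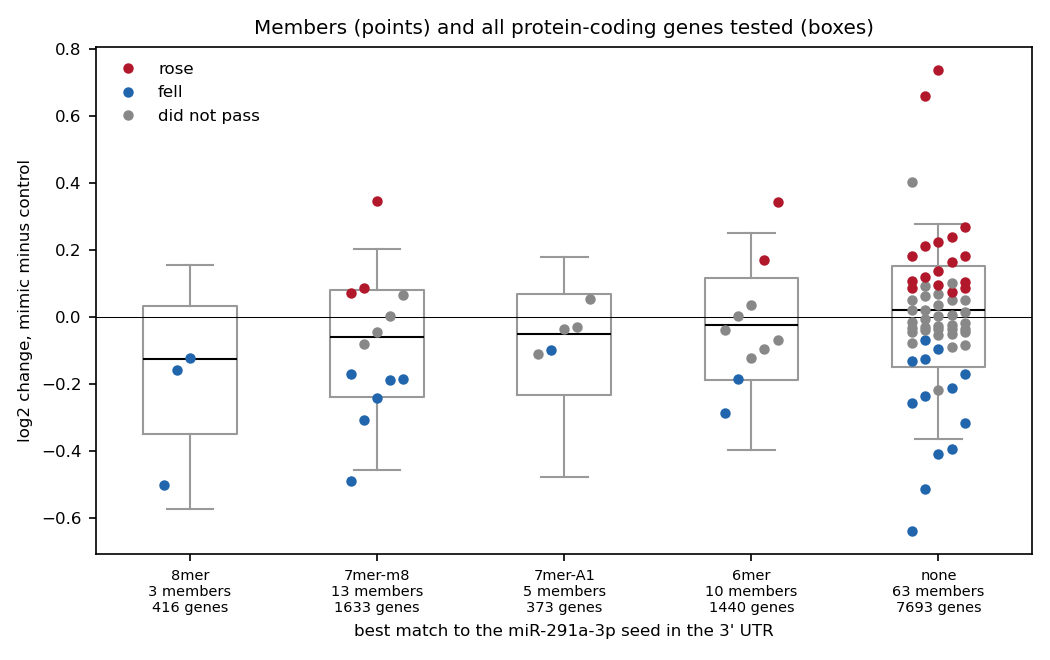
Log2 change (vertical axis) by the best match to the seed in the longest 3' UTR (horizontal axis): points are members, coloured by call, and boxes all protein-coding genes tested (median, quartiles, whiskers at the 10th and 90th percentile). The 3 members with an 8mer lie below 0, and the members with none, 63 in number, reach from -0.64 to 0.74.

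Risen and fallen members also differed in level. The 22 that rose had a median control level of 10.3 FPKM, the 25 that fell 3.45 FPKM and the 47 that did not pass 3.81 FPKM. Protein-coding genes in all showed the same order of risen over fallen, with 13.3, 5.01 and 3.06 FPKM. Median 3' UTR length was 1452 bases in risen, 1397 in fallen and 1262 in other members, and the median of fallen members was not above that of risen ones. In protein-coding genes the medians were 1064.5, 1313 and 1139 bases. Whether level has a part in the calls was not tested.

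Partner subunits and related enzymes outside the families were taken from 9 lists, of which 138 genes were tested once each; 46 rose and 33 fell, with a median change of 0.02 on the log2 scale (-0.01 for all genes). The lists were chosen with earlier results of these data known. Beside these and the following counts stand the 24.3% of all genes that rose and the 24.8% that fell, or 27.2% and 27.4% of the protein-coding ones. Of the PRC2 partners 5 of 9 rose and 1 fell (median 0.11), beside the fall of both EZH enzymes. Jarid2, a PRC2 cofactor that binds DNA and RNA, rose from 11.1 ± 0.23 to 16.1 ± 0.70 CPM (SD, n = 3), and Mtf2, a polycomb-like cofactor, from 29.2 ± 0.76 to 37.9 ± 1.07 CPM. Their log2 changes were 0.55 ± 0.07 and 0.38 ± 0.04 (SE, adjusted p = 5.8e-08 and 1.59e-08), and Aebp2 fell by 0.12. Partners of the COMPASS and MLL methyltransferases, whose catalytic genes Kmt2a, Kmt2c and Setd1b fell, Setd1a rose and Kmt2b and Kmt2d did not pass, had 9 of 12 risen and 1 fallen (median 0.10). The largest rises there were of Pagr1a (0.31 ± 0.08) and of the core scaffold Wdr5, from 116.2 ± 1.16 to 138.5 ± 2.92 CPM (0.25 ± 0.03, adjusted p = 9.35e-10). With total counts only, the counts were 3 risen and 1 fallen for PRC2 and 5 risen and 2 fallen for COMPASS and MLL. No PRC2 partner was called fallen without mimic replicate 3, and no COMPASS or MLL partner without control replicate 3, mimic replicate 1 or mimic replicate 3.

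Of the other methyltransferases 8 of 18 rose and 7 fell. Suv39h1, which sets the heterochromatin mark, had the largest fall of all partner genes, from 87.8 ± 2.60 to 58.3 ± 2.32 CPM (log2 change -0.59 ± 0.03, adjusted p = 3.66e-15), and Ash1l fell by 0.34. The arginine methyltransferase Carm1 rose by 0.30 and Smyd5 by 0.32. Other demethylases rose in 3 of 7 cases (Jmjd1c 0.23, Jmjd6 0.19) and fell in 1, Phf2 (-0.35), or in 2 without mimic replicate 2. Of the deacetylase complex partners 8 of 25 rose and 6 fell: the NuRD subunits Gatad2a and Mbd2 went in opposite directions, at 0.26 ± 0.02 and -0.47 ± 0.03, and so did the CoREST genes Rcor2 and Rcor3, at 0.25 ± 0.03 and -0.40 ± 0.05.

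The remaining lists had calls in both directions. Acetyltransferase partners rose in 4 and fell in 4 of 24 cases, with Yeats4 at 0.20 and Msl3 at -0.31 on the log2 scale, and with total counts only 1 rose and 9 fell; without control replicate 2, 8 rose, and without control replicate 3, 2 rose. SWI/SNF partners rose in 2 and fell in 3 of 13 cases, from Dpf2 at 0.13 to Bicral at -0.33. With total counts only 1 of them rose and 5 fell, and 1 rose without control replicate 3 or mimic replicate 3. Other remodellers rose in 4 and fell in 5 of 18 cases, led by the AAA+ ATPases Ruvbl2 (0.28) and Ruvbl1 (0.23) and by Baz2b (-0.23), and with total counts only 2 rose and 9 fell, and 3 fell without mimic replicate 3. Other bromodomain genes rose in 3 and fell in 5 of 12 cases, from Brwd3 at 0.45 to Trim24 at -0.34, and with total counts only 1 rose.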

How the data were processed

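The authors deposited a table of counts per gene for 24794 genes and a table of FPKM values for 24494 of them. HISAT2, DESeq2 and the build GRCm39 are named in the submitters' processing notes, with no version. How reads were counted, with which annotation and on which strand, is not given there. Per the labels' protocols, libraries were strand-specific and paired-end.

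Counts were tested with edgeR 4.0.16 (R 4.3.3) across the whole table: filterByExpr, TMM, glmQLFit and glmQLFTest, group only, with Benjamini-Hochberg adjustment over all 13779 genes tested and a threshold of 0.05. CPM use TMM-scaled library sizes. An SE is the log2 change divided by the square root of F. FPKM were used as deposited, for levels and ratios. Paralog ratios were tested with a two-sided exact permutation test (scipy 1.17.1). Seed words were searched in 3' UTRs of GENCODE M21. The steps were tested on simulated data. Pairs of libraries of a group differed by more than sampling noise (mean chi-square per gene 1.85 to 2.23), and each was counted as 1 library. This does not tell whether they stem from separate cultures.

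Members named with values are the largest called rise and fall of each family among those with a mean of at least 1 CPM, called members changed at least 1.5-fold, both genes of each paralog pair, and called members with an 8mer. The values of 1 member and of the pair that holds it are not reported here, though the counts include them. Per partner list at most 2 risen and 2 fallen genes are named. Members and lists were chosen with earlier results of these data known. Alternatives were other scalings and filters, DESeq2 1.42.0, the replicate number as a block, libraries left out, another 3' UTR, and CPM plus 1 or FPKM for the ratios.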

Additional observations from a re-analysis of the deposited data

How the results depend on the processing

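Of the counts over all members, the scaling moved most: with total counts only, 11 members rose in place of 22 and 39 fell in place of 25, with a median of -0.086 in place of -0.030 on the log2 scale. Over all 13779 genes the same scaling gave 2341 risen in place of 3349 and 4444 fallen in place of 3423. The DESeq2 Wald test called 16 members fallen and 18 risen. Leaving out 1 library gave 17 to 22 risen and 21 to 23 fallen members. Of the 47 calls, 27 held in all 12 alternative settings, 20 were lost in at least 1, and 0 turned to the opposite direction. Of 264 family counts under an alternative, 37 moved by more than 1.5 times, mostly counts of 1 to 3 genes. Same-numbered libraries of the groups correlated by 0.0196, 0.0748 and 0.0547 after removal of group means. These values are low, but each library correlated best with its own number. Whether libraries of the same number share a batch was not tested, and the labels do not tell. With the replicate block 23 members rose and 25 fell. Depth limits the genes of few reads: Sirt5 rests on 94 to 223 reads a library.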
